A study of Homo sapiens with 4 samples.

Results

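Integrins are the receptors that fix a cell to the matrix around it, and laminins are among the proteins they hold. Both families were followed here in 2 groups of Hs578T cells, a human breast cancer line with mesenchymal features. ELK3 knockdown cells had been transduced with shRNA lentivirus against ELK3, an ETS family transcription factor, to make a stable line. The sh control cells carry the label ELK3 sh control, and what their construct targets is not stated. Both groups were grown in medium with serum and added insulin, per the labels' protocols. Each group has 2 expression arrays, numbered 1 and 5 for knockdown and 1 and 2 for control. Whether these numbers mark constructs, clones or cultures is not stated, so p-values measure the spread between arrays, which may be technical.

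The genes were taken by symbol, as every integrin alpha (ITGA), integrin beta (ITGB) and laminin chain (LAMA, LAMB, LAMC) gene, leaving out antisense genes and binding partners that only share the prefix. Of 38 such human genes 35 had a value, 25 of 26 integrin genes and 10 of 12 laminin genes, out of 18132 genes tested. ITGB6 is represented only by 2 probe sets that carry another symbol as well, and 2 laminin genes are not analysed here. A gene is read from its brightest probe set by the mean over all 4 arrays, in log2 units of normalized signal. A gene was called when limma's adjusted p was under 0.05, and every difference is knockdown minus control.

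An integrin is a pair of membrane-spanning chains, and its alpha chain largely sets what it binds: collagens, laminins, proteins with an RGD sequence such as fibronectin, or partners on other cells. The beta chain carries most of the link to the actin skeleton, through talin and kindlin. A laminin is a trimer of an alpha, a beta and a gamma chain that assembles into the sheet of the basement membrane. Mesenchymal cells are known for receptors of fibronectin and fibrillar collagen, and epithelial cells for receptors that anchor them to laminin.

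ELK3 itself had signals of 8.09 and 7.92 in the knockdown arrays, against 10.05 and 10.07 in the control arrays, a difference of -2.06 (SE 0.09, limma adjusted p = 2.57e-06). Arrays of the same group correlated over all probe sets at 0.996 (knockdown) and 0.998 (control), against 0.902 to 0.904 across groups. Markers of the mesenchymal line (VIM, ZEB1, CDH2, SPARC, FN1) were all 5 lower, with a summed log2 signal of 51.9 to 52.3 in knockdown arrays and 64.5 to 64.7 in control arrays. VIM, which encodes vimentin, stood at 13.05 and 13.20 in knockdown arrays and 14.30 and 14.27 in control arrays. Of 7 epithelial markers 3 were higher, all keratins, and the summed signal was 56.4 to 58.5 in knockdown arrays and 43.2 to 43.4 in control arrays. EPCAM stood at 3.70 to 3.81 in knockdown arrays and 3.67 to 3.99 in control arrays, near the lower end of the scale, and CDH1, which encodes E-cadherin, at 4.28 to 4.32 in knockdown arrays and 4.31 to 4.50 in control arrays. Of 7 leukocyte markers 1 was higher (CORO1A) and 1 lower (LCP1), and their sums were 36.4 to 36.6 in knockdown arrays and 36.8 to 37.2 in control arrays. PTPRC, which nearly all leukocytes carry, lay at 3.60 to 3.65 in knockdown arrays and 3.68 to 3.78 in control arrays. Of the other markers 2 of 5 endothelial and 1 of 4 platelet genes were lower, and 0 of 3 luminal genes were called. Beside these counts, 21.3% of all genes were lower and 29.5% higher. The mesenchymal and keratin markers set apart the same arrays as every result given here, and their part in those results was not tested.

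More integrin and laminin genes were lower than higher in knockdown cells. Of the 35 genes 21 were called (60%, where 50.8% of all genes were called), 15 of them lower (42.9%, against 21.3% of all genes) and 6 higher (17.1%, against 29.5%). Changes over 2-fold were found for 18 genes, 51.4% of the 35, where 17.7% of all genes passed that mark. Of these 13 were lower (37.1%, against 7.51% of all genes) and 5 higher (14.3%, against 10.2%). The selection in the series' design text, a fold over 1.5 with an unadjusted p under 0.05, held 14 lower and 6 higher genes, where 12.6% and 19.1% of all genes were lower and higher. The falls ran from 1.39-fold (LAMC1) to 12.0-fold (ITGA5) and the rises from 1.54-fold (ITGAE) to 6.92-fold (LAMA1). The median difference was -0.24, beside -0.010 over all genes, and the median size of a difference was 1.18, beside 0.30. The groups did not overlap for 28 of the 35 genes (80%), where they did not overlap for 75.3% of all genes. In bulk RNA, fewer cells that carry a transcript and less transcript per cell cannot be told apart.

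**Figure D1:**
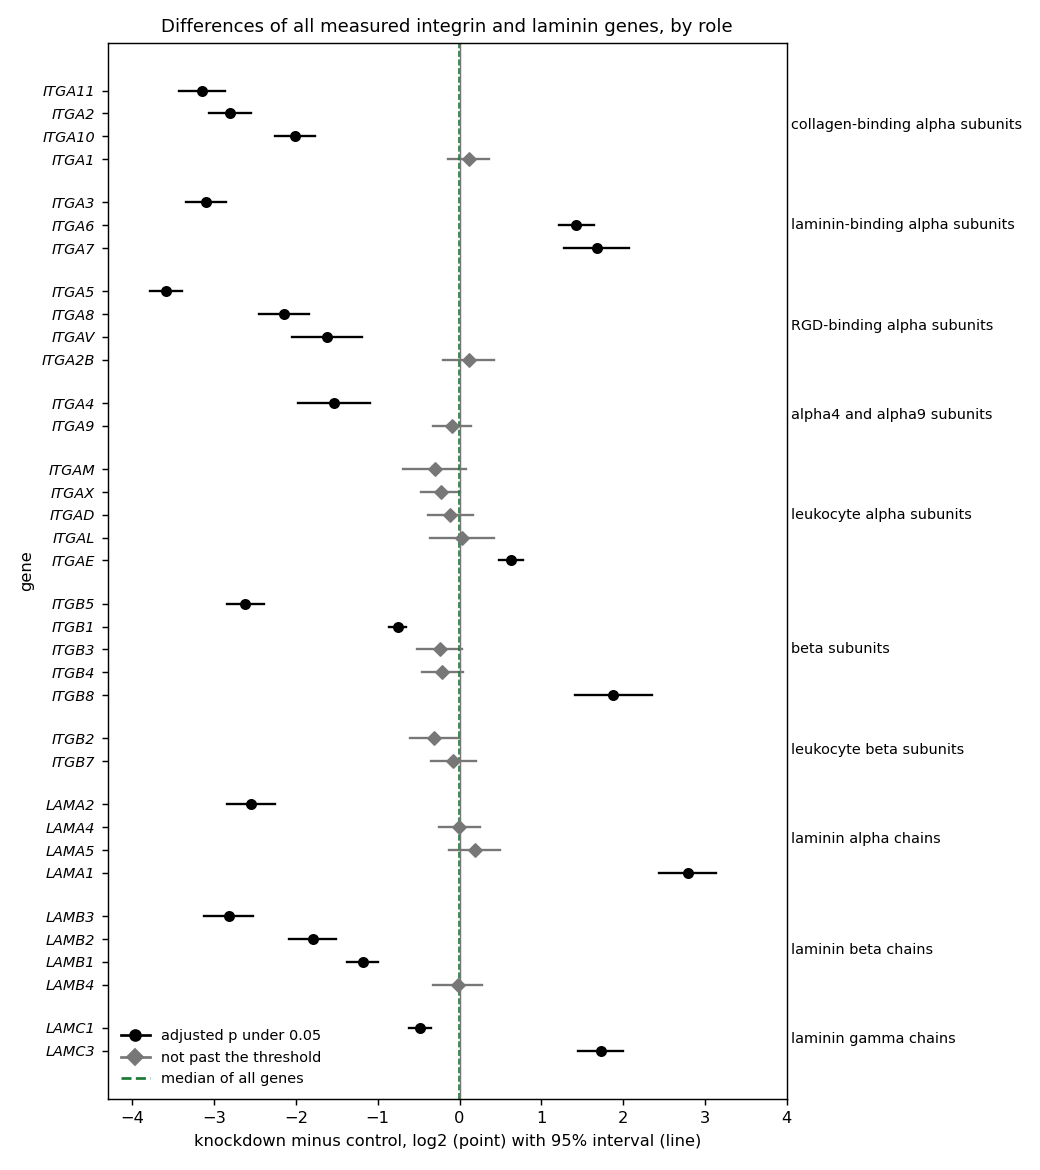
Knockdown minus control on the log2 scale for the 35 genes, grouped by role, with points for the difference and lines for its 95% interval from the fit; black circles passed an adjusted p of 0.05, grey diamonds did not, and the dashed line is the median of all genes. Most called genes lie left of 0, and ITGA6, ITGA7, ITGAE, ITGB8, LAMA1 and LAMC3 lie right of it.

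ELK3 belongs to the ETS factors, which read a GGAA core in DNA, so the windows just upstream of the genes' starts are shown with matches to an extended ETS core. RefSeq promoter windows (GRCh38.p14, the table's build) were found for 24 of the 35 genes, 31 windows in all since some genes have several starts, and the 250 bases before each start were searched on both strands. CCGGAA was found in 5 of 31 windows (16.1%), against 14.5% of all 35116 windows. Those were 1 window each of ITGB5, ITGB1, LAMB2, ITGA6 and LAMA5. The longer CCGGAAGT, which contains it, was found in 1 window, that of ITGB5 (3.23%, against 3.42% of all windows). The CArG box, which serum response factor reads beside ternary complex factors such as ELK3, was in 0 of 31 windows, against 1.16% of all. The 5 windows below are those of the gene that fell furthest (ITGA5, no match), of 3 genes that were lower and hold a match (ITGB5, ITGB1, LAMB2) and of 1 that was higher and holds a match (ITGA6). Each runs 5′ to 3′ along its gene and ends at the base before the start, and capitals mark CCGGAA, read in all 4 matches as TTCCGG on the gene's strand.
ITGA5: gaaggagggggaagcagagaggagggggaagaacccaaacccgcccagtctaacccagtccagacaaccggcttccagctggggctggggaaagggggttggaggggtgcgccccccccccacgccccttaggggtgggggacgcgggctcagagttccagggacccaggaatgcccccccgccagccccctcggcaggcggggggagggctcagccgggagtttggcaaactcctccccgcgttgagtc
ITGB5: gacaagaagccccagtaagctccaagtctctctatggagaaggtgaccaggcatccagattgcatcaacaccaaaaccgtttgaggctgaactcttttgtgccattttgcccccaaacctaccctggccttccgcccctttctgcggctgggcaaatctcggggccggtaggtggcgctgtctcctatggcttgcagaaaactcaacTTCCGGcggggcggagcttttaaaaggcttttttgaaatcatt
ITGB1: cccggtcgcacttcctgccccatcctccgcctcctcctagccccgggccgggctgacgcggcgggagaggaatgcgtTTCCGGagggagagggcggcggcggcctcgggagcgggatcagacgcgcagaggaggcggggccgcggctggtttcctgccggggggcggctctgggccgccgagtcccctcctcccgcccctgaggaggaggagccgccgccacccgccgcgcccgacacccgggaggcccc
LAMB2: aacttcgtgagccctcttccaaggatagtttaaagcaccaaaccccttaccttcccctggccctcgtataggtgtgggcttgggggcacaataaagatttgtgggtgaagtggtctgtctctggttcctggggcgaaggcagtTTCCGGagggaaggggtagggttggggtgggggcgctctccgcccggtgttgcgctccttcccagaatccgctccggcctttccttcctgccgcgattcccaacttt
ITGA6: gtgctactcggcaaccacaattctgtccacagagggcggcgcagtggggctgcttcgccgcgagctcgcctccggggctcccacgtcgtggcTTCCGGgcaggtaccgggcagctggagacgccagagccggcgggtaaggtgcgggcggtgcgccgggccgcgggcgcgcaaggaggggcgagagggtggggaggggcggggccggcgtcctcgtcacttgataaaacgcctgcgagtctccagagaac
They lie at chr12:54419267-54419516 (minus strand), chr3:124901419-124901668 (minus), chr10:32958231-32958480 (minus), chr3:49133051-49133300 (minus) and chr2:172427336-172427585 (plus). The match begins 43 bases before the start in ITGB5, 107 in LAMB2, 158 in ITGA6 and 173 in ITGB1. Genes with a match thus include both directions and a gene that was not called (LAMA5), and a match in letters is not a measured binding site. For ITGB5 the match is in 1 of 3 windows of the gene, and for ITGB1 and ITGA6 in 1 of 2.

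Receptors for collagen fell in 3 of 4 alpha chains, where 21.3% of all genes fell. ITGA11, the alpha chain of a fibrillar collagen receptor typical of fibroblasts, had signals of 5.73 and 5.62 in the knockdown arrays and 8.92 and 8.72 in the control arrays. It was 8.88-fold lower (difference -3.15, SE 0.12, adjusted p = 1.35e-06, or -2.44 when its probe sets were averaged). ITGA2, whose pair with beta 1 is a general collagen receptor, had 7.07 and 7.31 in knockdown and 10.03 and 9.96 in control arrays. ITGA2 was 6.98-fold lower (difference -2.80, SE 0.11, adjusted p = 1.48e-06). ITGA10, a collagen receptor chain best known in cartilage, had 6.05 and 6.10 in knockdown and 8.08 and 8.09 in control arrays, 4.03-fold lower (difference -2.01, SE 0.10, adjusted p = 5.45e-06). The mean of its 3 probe sets put ITGA10 at -0.99, and 1 of the 3 was not called (-0.21). ITGA1, the remaining collagen-binding alpha chain, was not called, at 5.86 and 5.81 in knockdown and 5.69 and 5.75 in control arrays (difference 0.11, 95% interval -0.13 to 0.36). ITGA1 and ITGA2 lie near each other in the genome by the RefSeq table. PELO, which overlaps ITGA1 there, was not called (0.19).

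The laminin-binding alpha chains went both ways, with ITGA3 lower and ITGA6 and ITGA7 higher. ITGA3, part of a receptor for laminins of epithelial basement membranes, had 6.11 and 6.23 in knockdown arrays against 9.26 and 9.28 in control arrays. That is 8.55-fold lower (difference -3.10, SE 0.10, adjusted p = 8.24e-07), and -1.96 with the mean of its 3 probe sets, all of which were called lower. ITGA6, which pairs with beta 1 or with beta 4, had 9.13 and 9.09 in knockdown arrays against 7.71 and 7.65 in control arrays. It was 2.69-fold higher (difference 1.43, SE 0.09, adjusted p = 1.36e-05), and its 3 probe sets rose by 1.29 to 1.89. ITGA7, the laminin receptor chain of skeletal muscle, had 6.39 and 6.87 in knockdown arrays against 4.97 and 4.94 in control arrays, 3.19-fold higher (difference 1.67, SE 0.17, adjusted p = 1.37e-04). TMT1B and BLOC1S1, which overlap ITGA7 in the RefSeq table, were higher by 0.65 and 0.40. ITGA3, ITGA6 and ITGA7 each had groups that did not overlap, as had 75.3% of all genes. The knockdown arrays of ITGA7 were 0.49 apart, with array 5 the higher.

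**Figure D2:**
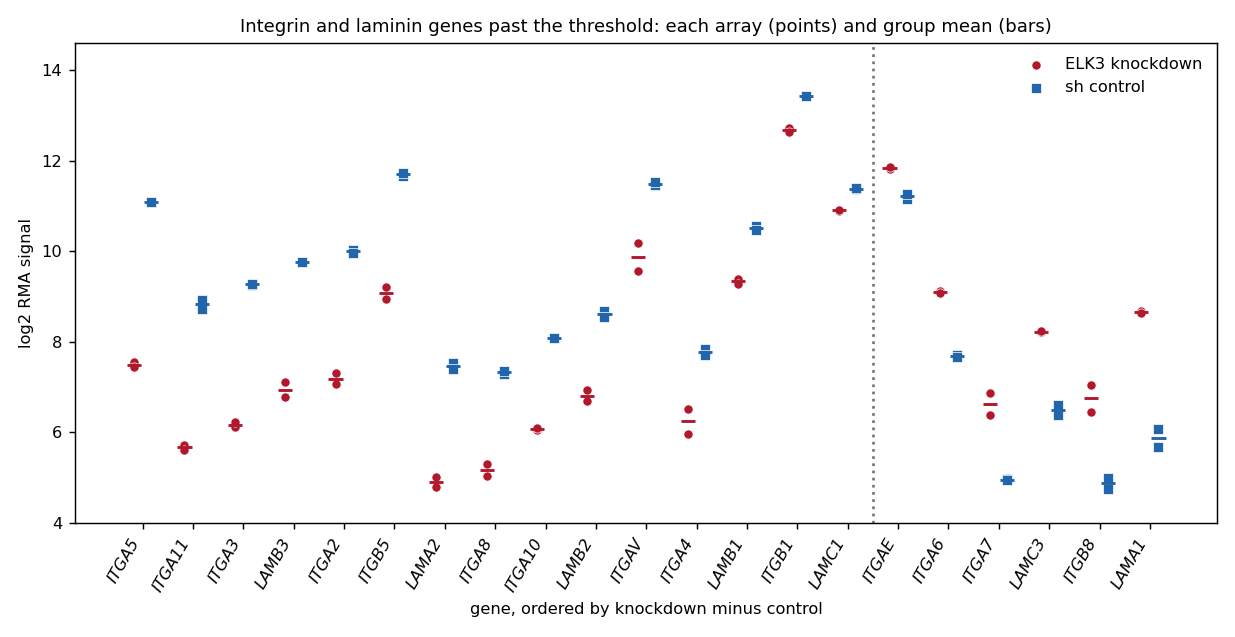
Log2 signal of the 21 called genes in each array, knockdown as red circles and control as blue squares, with a bar at each group mean; genes are ordered by their difference and the dotted line parts the 15 lower from the 6 higher genes. The groups overlap for no gene shown, nor for 75.3% of all genes. The red circles stand furthest apart for ITGAV, ITGB8, ITGA4 and ITGA7.

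Among alpha chains that bind RGD sequences, 3 of 4 fell, where 21.3% of all genes fell. ITGA5, which with beta 1 forms the main fibronectin receptor, had 7.55 and 7.44 in knockdown arrays against 11.08 and 11.08 in control arrays. It was 12.0-fold lower (difference -3.58, SE 0.08, adjusted p = 2.26e-07) and ranked 191 by size of fall among 18132 genes. All 4 of its probe sets were called lower, from -2.19 to -3.58, and without probe sets whose names mark cross-hybridisation it stood at -2.79. ITGA8, which pairs with beta 1 and binds nephronectin and fibronectin, had 5.30 and 5.04 in knockdown arrays against 7.28 and 7.36 in control arrays, 4.44-fold lower (difference -2.15, SE 0.13, adjusted p = 1.10e-05). ITGAV, the alpha chain shared by several vitronectin and TGF-beta activating receptors, had 10.18 and 9.56 in knockdown arrays and 11.46 and 11.52 in control arrays. It was 3.07-fold lower (difference -1.62, SE 0.18, adjusted p = 2.29e-04), its 5 probe sets were all called lower, and its knockdown arrays were 0.62 apart. ITGA2B, the platelet fibrinogen receptor chain, was not called at 0.11 (95% interval -0.20 to 0.42), although the mean of its 3 probe sets passed at 0.35 (adjusted p = 0.0362).

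ITGA4, whose pairs bind VCAM1 and fibronectin and which is common on leukocytes, had 6.52 and 5.96 in knockdown arrays against 7.83 and 7.71 in control arrays, 2.89-fold lower (difference -1.53, SE 0.18, adjusted p = 3.56e-04). Of its 5 probe sets 4 were called lower and 1 was not. ITGA9, its closest relative among the alpha chains, was not called (difference -0.09, 95% interval -0.32 to 0.15).

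Of the alpha chains that belong to leukocytes, 1 of 5 was called, where 50.8% of all genes were. ITGAE, which with beta 7 lets T cells of epithelia hold E-cadherin, had 11.81 and 11.86 in knockdown arrays against 11.16 and 11.26 in control arrays, 1.54-fold higher (difference 0.63, SE 0.06, adjusted p = 1.21e-04). It rests on 1 probe set, and P2RX5, a gene that overlaps it in the RefSeq table, was higher by 1.74, while HASPIN, which overlaps it as well, was not called (-0.10). ITGB7, the chain ITGAE pairs with, was not called (-0.08, 95% interval -0.35 to 0.20). ITGAM, ITGAX, ITGAD and ITGAL, which pair with beta 2, stood at -0.30, -0.23, -0.11 and 0.03, and ITGB2 at -0.31 (adjusted p = 0.0824). The brightest probe set of ITGAX has a name that marks cross-hybridisation, and its next brightest stood at 0.15 and was not called. ITGAM passed at -0.54 without knockdown replicate 5 and at -0.32 when its probe sets were averaged, and ITGB2 passed at -0.44 without control replicate 1.

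The other beta chains split into 2 lower, 1 higher and 2 not called, where 21.3% of all genes were lower and 29.5% higher. ITGB5, which with alpha V forms a vitronectin receptor, had 9.21 and 8.95 in knockdown arrays against 11.66 and 11.73 in control arrays. It was 6.13-fold lower (difference -2.62, SE 0.10, adjusted p = 1.27e-06). ITGB8, which with alpha V activates latent TGF-beta, moved the other way, with 7.05 and 6.46 in knockdown arrays against 4.76 and 4.99 in control arrays, 3.68-fold higher (difference 1.88, SE 0.20, adjusted p = 1.84e-04). That rise rests on 1 of its 4 probe sets. The other 3 lay between 0.01 and 0.17 and were not called, and the mean of all 4 was 0.55 (adjusted p = 0.00138).

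ITGB1, the beta chain shared by the largest group of integrins, had 12.72 and 12.64 in knockdown arrays and 13.43 and 13.43 in control arrays, 1.69-fold lower (difference -0.76, SE 0.05, adjusted p = 1.18e-05). Its size depended on the probe set: of 5, 4 were called lower, from -0.76 for the brightest to -1.92, and the dimmest was not called at -0.05. Without probe sets whose names mark cross-hybridisation ITGB1 stood at -1.52. ITGB3, the beta chain of the platelet receptor and of a vitronectin receptor, was not called by its brightest probe set, with 5.70 and 5.50 in knockdown arrays against 5.86 and 5.83 in control arrays (difference -0.24, 95% interval -0.52 to 0.03). All of its 7 probe sets were below 0, however, from -0.24 to -1.34, 3 of them were called lower, and their mean passed at -0.54 (adjusted p = 0.00197). ITGB4, the hemidesmosome chain that pairs with alpha 6, had 6.53 and 6.53 in knockdown arrays against 6.73 and 6.75 in control arrays (difference -0.21, 95% interval -0.46 to 0.04). None of the 8 probe sets of ITGB4 was called, with differences from -0.23 to 0.10.

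**Figure D3:**
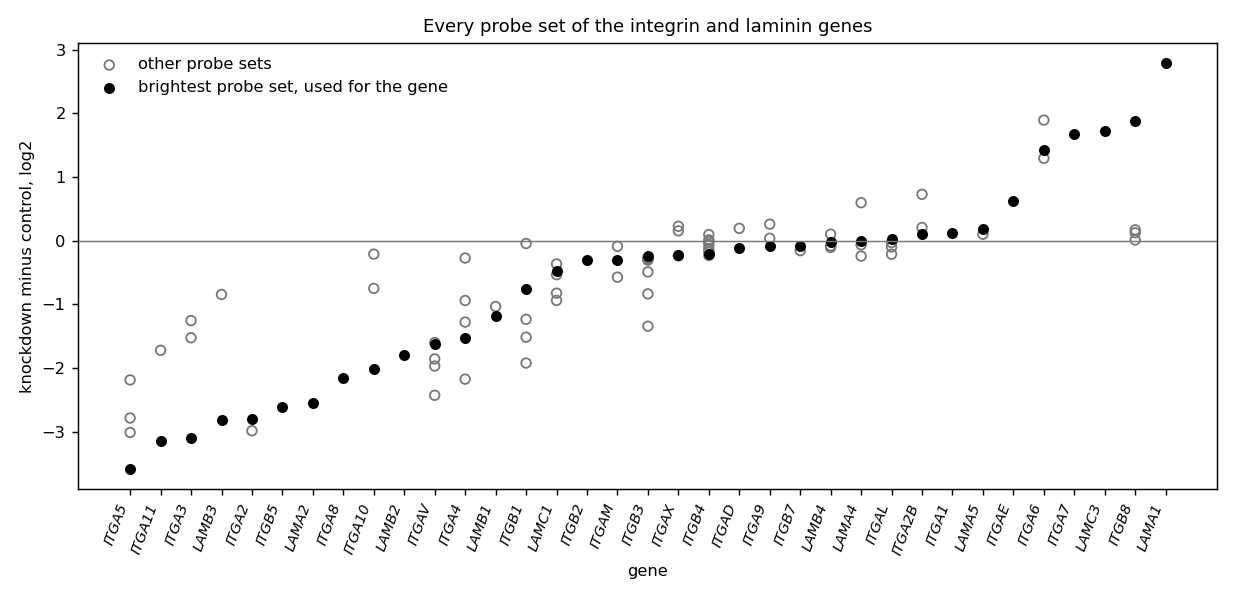
Knockdown minus control on the log2 scale for all 101 probe sets of the 35 genes, ordered by the gene's difference; filled points are the brightest probe set used for the gene and open points the others. The open points of ITGB8 lie near 0 under its filled point, and those of ITGB1 and ITGB3 mostly lie below theirs.

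Over all genes with a value, 25 had more than 1 probe set. Of the 13 called genes among them, 9 had every probe set called in the same direction and 0 had any called in the opposite direction. ITGA4, ITGA10, ITGB1 and ITGB8 were the 4 with a probe set that was not called. The calls of ITGA7, ITGA8, ITGB5, LAMB2 and LAMC3 rest on 1 probe set each, as do those of ITGAE, LAMA1 and LAMA2. LAMA4 had 1 of 4 probe sets called, higher by 0.60, although its brightest was not. The same held for 1 of 3 probe sets of ITGA2B (0.73) and 1 of 3 of ITGAM (-0.57).

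Among laminin alpha chains LAMA1 was higher and LAMA2 lower. LAMA1, the alpha chain of the laminin of early embryos, had 8.68 and 8.64 in knockdown arrays against 5.67 and 6.07 in control arrays. It was 6.92-fold higher (difference 2.79, SE 0.15, adjusted p = 6.10e-06) and ranked 294 by size of rise among 18132 genes. LAMA2, the alpha chain of muscle and nerve basement membrane, had 5.01 and 4.80 in knockdown arrays against 7.52 and 7.40 in control arrays, 5.87-fold lower (difference -2.55, SE 0.12, adjusted p = 4.12e-06). Each of these genes has 1 probe set. LAMA4, found in vessels and fat, was not called (-0.01, 95% interval -0.26 to 0.25), nor was LAMA5, the widespread alpha chain of adult epithelia, with 8.59 and 8.96 in knockdown arrays against 8.58 and 8.60 in control arrays (0.18, 95% interval -0.13 to 0.49). LAMA5 passed at 0.37 without knockdown replicate 1.

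Laminin beta chains fell in 3 of 4 genes, where 21.3% of all genes fell. LAMB3, a chain of the laminin that anchors skin epithelium, had 7.11 and 6.78 in knockdown arrays against 9.77 and 9.76 in control arrays. It was 7.07-fold lower (difference -2.82, SE 0.12, adjusted p = 2.72e-06), or -1.83 when its probe sets were averaged. LAMB2, the beta chain of the kidney filter and the neuromuscular junction, had 6.93 and 6.69 in knockdown arrays against 8.67 and 8.54 in control arrays, 3.47-fold lower (difference -1.80, SE 0.12, adjusted p = 1.98e-05). LAMB1, the common beta chain of most tissues, had 9.39 and 9.28 in knockdown arrays against 10.56 and 10.47 in control arrays, 2.27-fold lower (difference -1.18, SE 0.08, adjusted p = 1.92e-05). LAMB4, which adjoins LAMB1 in the RefSeq table with 0 protein-coding genes between them, was not called (-0.02, 95% interval -0.32 to 0.28).

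The 2 gamma chains with a value differed in direction. LAMC1, the gamma chain of most laminins, had 10.88 and 10.91 in knockdown arrays against 11.37 and 11.39 in control arrays, 1.39-fold lower (difference -0.48, SE 0.06, adjusted p = 3.21e-04), and all 5 of its probe sets were called lower. LAMC3, a gamma chain of restricted distribution, had 8.21 and 8.24 in knockdown arrays against 6.61 and 6.39 in control arrays, 3.30-fold higher (difference 1.72, SE 0.12, adjusted p = 2.05e-05). Read as trimers, LAMA1 was higher while its usual partners LAMB1 and LAMC1 were lower, and LAMA2 was lower together with both.

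The 14 genes that were not called had differences from -0.31 to 0.18, and their 95% intervals together ran from -0.69 to 0.49. Of those, 10 had all 4 values under 6.78, the median of all values on the arrays, and 0 of the 21 called genes did. For genes with one group at the dim end, such as ITGA7 and ITGB8 in control arrays and LAMA2 and ITGA8 in knockdown arrays, the floor of the array limits the fold.

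The knockdown arrays differed from each other by over 0.4 for 6 of the 35 genes (17.1%), where 5.49% of all genes did. Those were ITGAV, ITGB8 and ITGA4, with array 1 the higher, and ITGA7, ITGAM and ITGAL, with array 5 the higher. The control arrays differed by that much for 0 of the 35, where 2.37% of all genes did. ITGAV thus stood at -1.31 in knockdown array 1 and -1.93 in array 5 relative to the control mean, and ITGB8 at 2.18 and 1.59.

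Genes for proteins that tie integrins to actin or regulate their activation were mostly lower. Of 27 integrin regulators and focal adhesion adaptors 21 were lower (77.8%, where 21.3% of all genes were lower). Of the 27, 0 were higher and 6 not called, with a median difference of -0.73. Without knockdown replicate 5, 1 of them was higher. The LIM protein genes FHL2 and TGFB1I1 stood at -2.93 and -2.58, the tensin gene TNS3 at -2.29 and KANK2, which binds talin, at -1.78. TNS3 stood at -1.40 when its probe sets were averaged. The lower genes of this list also include ITGB1BP1 (-1.02) and SHARPIN (-0.28), which encode inhibitors of integrin activation. Of 16 listed focal adhesion kinases and their partners 13 had a value. Of the 13, 8 were higher, where 29.5% of all genes were, and 1 was lower, where 21.3% of all genes were. Another 4 were not called, and over the 13 the median was 0.32, with differences between -0.76 and 1.11. The number lower was 3 without knockdown replicate 1 and 2 without knockdown replicate 5. ARHGAP5 rose most, by 2.15-fold. The adaptor CRKL was 1.68-fold higher, CSK, the kinase that inhibits SRC, 1.63-fold and the SRC family kinase FYN 1.51-fold. PTK2, which encodes focal adhesion kinase, was the 1 that was lower (-0.76, SE 0.12, adjusted p = 0.00167).

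**Figure D4:**
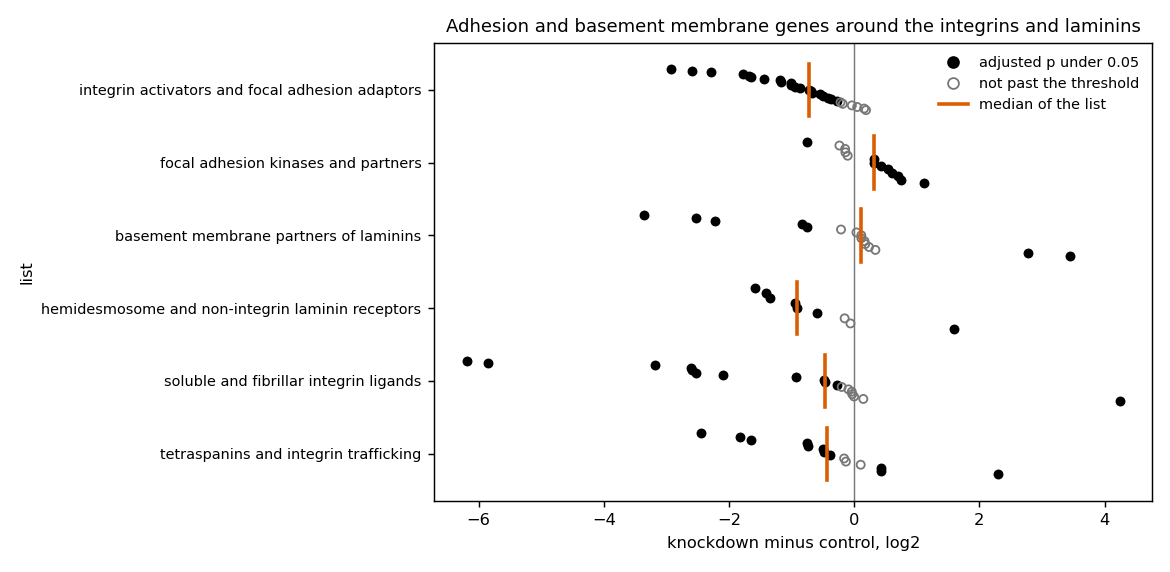
Knockdown minus control on the log2 scale for the measured genes of 6 lists around the integrins and laminins; filled points passed an adjusted p of 0.05, open points did not, and the orange bar is the median of the list. Of the 27 genes listed as integrin activators and focal adhesion adaptors 21 are filled and left of 0. The basement membrane list has NID1 and SMOC1 far to the right of its other genes.

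Partners of laminin in the basement membrane were called about as often as genes at large, at 46.7% of 15 measured and 50.8% of all genes. Of them 5 were lower, 2 higher and 8 not called (median 0.11), and 4 were higher without knockdown replicate 1, with averaged probe sets or with dim genes left out. PXDN, the peroxidase that crosslinks collagen IV, was 10.2-fold lower, and the collagen IV genes COL4A1 and COL4A2 were 5.80-fold and 4.69-fold lower. COL4A1 stood at -3.22 without probe sets whose names mark cross-hybridisation. NID1, which bridges laminin and collagen IV, had 8.92 and 8.94 in knockdown arrays against 5.50 and 5.48 in control arrays, 10.9-fold higher (difference 3.44, SE 0.10, adjusted p = 5.23e-07). Its relative NID2 moved the other way, 1.78-fold lower. SMOC1, a basement membrane protein, was 6.83-fold higher (a log2 difference of 2.77, or 2.18 when its probe sets were averaged).

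A list of 16 genes held hemidesmosome genes, laminin receptors that are not integrins, and genes tied to either, and 9 had a value. Of the 9, 6 were lower, where 21.3% of all genes were, and 1 was higher, where 29.5% of all genes were. The remaining 2 were not called, and the median difference of the 9 was -0.91. Lower genes included SGCA, SGCB and SGCE, which encode sarcoglycans, and the laminin receptor gene BCAM was not called (-0.15). Of the whole list 3 were lower without probe sets whose names mark cross-hybridisation. SGCB, a sarcoglycan, stood at -1.58. Also lower were PLEC, the linker plectin that ITGB4 holds, by 2.67-fold and CD151, the tetraspanin partner of laminin-binding integrins, by 1.92-fold. SGCE was 2.54-fold lower, but without those probe sets its log2 difference was -0.10 and it was not called. POMT1, which starts the sugar chain by which dystroglycan binds laminin, was 3.02-fold higher (a log2 difference of 1.59, or 0.92 when its probe sets were averaged). The knockdown arrays of POMT1 were 0.67 apart, and POMT2, in the same list, was not called (-0.06).

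Ligands of integrins outside the laminins fell in 11 of 18 genes and rose in 1, with 6 not called (median -0.47), where 21.3% of all genes fell and 29.5% rose. With dim genes left out, which leaves VCAM1, SPP1, VTN, FGG and NPNT untested, 7 fell and 0 rose. FN1, which also stands among the mesenchymal markers and encodes fibronectin, the ligand of alpha 5 beta 1, had 8.21 and 7.56 in knockdown arrays against 14.05 and 14.10 in control arrays, 73.0-fold lower (difference -6.19, SE 0.19, adjusted p = 5.63e-07). FBN1, which encodes fibrillin, was 57.7-fold lower, and its log2 difference was -4.59 when its probe sets were averaged. CCN1 and EDIL3, ligands of alpha V integrins, were 9.05-fold and 6.10-fold lower. CCN1 moved with the knockdown array read, at -3.96 without knockdown replicate 1 and -2.40 without knockdown replicate 5, and EDIL3 stood at -3.28 without probe sets whose names mark cross-hybridisation. The ligand that rose was NPNT, nephronectin, with 7.66 and 8.07 in knockdown arrays against 3.62 and 3.63 in control arrays, a log2 difference of 4.24 (SE 0.15, adjusted p = 1.04e-06, or 2.35 when its probe sets were averaged). The control signals of NPNT lie at the lower end of the scale, so the array limits how large a difference it can show. ITGA8, the alpha chain of its receptor, was 4.44-fold lower in the same arrays.

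Tetraspanins and genes of integrin trafficking were lower in 8 of 14, higher in 3 and not called in 3 (median -0.44), where 21.3% of all genes were lower and 29.5% higher. Of these genes 5 were lower without probe sets whose names mark cross-hybridisation. CD82, a tetraspanin that restrains cell movement, was 5.46-fold lower, the endocytic adaptor DAB2 3.54-fold, TSPAN4 3.15-fold and CD63 1.70-fold. CD9, a tetraspanin partner of integrins, was 4.89-fold higher (a log2 difference of 2.29, or 1.53 when its probe sets were averaged), and CD81 and RAB11A were each 1.34-fold higher.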

How the data were processed

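RNA labelled Hs578T, 2 samples with ELK3 knockdown and 2 of sh control, was measured on Affymetrix PrimeView arrays. The deposited table holds log2 signals that the authors normalized with RMA, per the submitters' processing notes; the RMA version and genome build are not given here. Arrays have no read depth, so their number limits the precision. Of 49293 probe sets, 44988 have 1 symbol, 1832 several and 2473 none in the platform's annotation, and 18132 genes were tested with limma 3.58.1 in R 4.3.3 (lmFit, eBayes with an intensity trend, Benjamini-Hochberg over all genes, 2 residual and 4.83 prior degrees of freedom). An exact permutation test of 2 against 2 arrays cannot give a p below 0.333. Folds are 2 to the power of the log2 difference.

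Integrin and laminin genes and the lists around them were chosen with earlier results of these data known. Values by array are given for the 14 called genes with the largest differences over 2-fold and for ITGB1, ITGAV, ITGA6, LAMB1 and LAMC1; those of other genes, such as ITGA4, ITGAE and ITGB3, were added after they were seen. From each list up to 4 called genes in each direction are named by size of difference. Named outside that rule are ITGB1BP1, SHARPIN, SGCA, BCAM and POMT2, and the ligand genes VCAM1, SPP1, VTN and FGG. The fit was tested on simulated data. Alternatives were no trend, robust moderation, the mean of all probe sets, cross-hybridising probe sets left out, dim genes left out, quantile normalization, median centring, every probe set tested, other thresholds, and leaving out each array. Figures used matplotlib 3.10.9 in Python 3.11.15.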

Additional observations from a re-analysis of the deposited data

How the results depend on the processing

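The counts of 15 lower and 6 higher genes stayed within 1.5 times under each alternative tried. With each array left out in turn they were 15 to 16 lower and 6 to 7 higher, where the lone array of a group is assumed to vary like the other group. With the mean of all probe sets they were 17 and 7, with dim genes left out 13 and 4 of 21 genes tested (71.4% of all genes were called in that setting), and with the fold and unadjusted p of the series' design text 14 and 6. That last rule leaves out LAMC1 by its fold, and the filter on dim genes leaves out ITGA7, ITGA8, ITGB8 and LAMA2 untested. No other called integrin or laminin gene lost its call, and none turned, under the alternatives tried. Of 406 recomputed differences, 6 gained a call, those of ITGAM (in 2 settings), ITGB3, ITGA2B, ITGB2 and LAMA5. With dim genes left out the median difference over all genes tested was 0.12, beside -0.010.

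Of 144 recomputed list counts 10 moved by over 1.5 times. Basement membrane partners that rose numbered 4, against 2, with the mean of probe sets, with dim genes left out or without knockdown replicate 1. Focal adhesion kinases and partners that fell numbered 3 without knockdown replicate 1 and 2 without knockdown replicate 5, against 1, and 1 adaptor rose without knockdown replicate 5, against 0. With cross-hybridising probe sets left out 3 genes of the hemidesmosome and laminin receptor list fell, against 6. In that setting 5 tetraspanin and trafficking genes fell, against 8. With dim genes left out 7 ligands fell, against 11, and 0 rose, against 1. That filter leaves untested VCAM1, SPP1, VTN and FGG, which were lower, and NPNT, which was higher. The cause of the other moves was not tested. No paired analysis was possible because the labels do not pair knockdown arrays with control arrays.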
